A study of Gossypium hirsutum with 7 samples.

Results

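The genes described here are myb109, MYB1, bHLH110D and GHTTG1, transcription factors and a WD-repeat protein of the kinds that pattern plant hairs. They were chosen by name: every probe set whose only annotated gene carries one of these names was taken, which gave 4 genes with 1 probe set each among 23977 cotton probe sets. RNA came from whole ovules of cotton (Gossypium hirsutum, whose genome joins an A and a D parent genome, so that related gene copies are common) at 0 days post anthesis (dpa), the day of flowering, when fibre cells begin to bulge from the ovule surface. Each sample was labelled with biotin and read on its own Affymetrix cotton array. There were 3 arrays of transgenic ovules over-expressing the homeodomain gene GhHD-1, 2 arrays of transgenic ovules in which GhHD-1 was silenced, and 2 arrays of wild-type ovules, all from glasshouse plants. Replicates are labelled biological, without a statement that each came from separate plants. Neither the promoter of a transgene nor the number of independent transgenic lines is given in the labels.

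Cotton fibres are single-celled outgrowths of the seed epidermis and are often compared with leaf hairs. In Arabidopsis, a MYB factor, a basic helix-loop-helix (bHLH) factor and the WD-repeat protein TTG1 act together in a complex that commits an epidermal cell to become a hair, partly by switching on a homeodomain-leucine zipper gene. In cotton, myb109 is a MYB gene active in fibre initials and young fibres, GHTTG1 is a counterpart of Arabidopsis TTG1, and bHLH110D, listed also as GHDEL61, is a bHLH gene. MYB1 is a further cotton MYB gene. The comparisons ask whether these genes differ in transcript level when GhHD-1, itself a homeodomain factor of the epidermis, is silenced or over-expressed.

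In the annotation myb109 is LOC107961466, MYB1 is LOC107895098, bHLH110D is LOC107904486 and GHTTG1 is LOC107938089. The probe sets of myb109 and bHLH110D end in _s_at, which marks probes that can read several related transcripts, so their values may mix gene copies or family members. All values are log2 intensities, on which 1 unit is a doubling. Levels of different probe sets are not set against each other, because probes differ in how brightly they bind.

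Some arrays stood apart before any comparison was made. The spread of differences between the silenced arrays was 0.199 log2 units (SD over probe sets), against 0.491 between the wild-type arrays, and it was 0.258 to 0.434 between pairs of over-expression arrays. Wild-type replicate 2 lay nearer to the over-expression arrays, at 0.317 to 0.420, than to wild-type replicate 1. In turn, wild-type replicate 1 lay nearer to the silenced arrays, at 0.404 and 0.427. The wild-type arrays were thus less like each other than like some transgenic arrays. A reporter control probe set, RPTR-Ghi-U57609-2_s_at, read 5.91, 8.59 and 8.81 on over-expression replicates 1, 2 and 3. It read 9.73 and 9.84 on the silenced arrays, and 5.09 and 11.88 on wild-type replicates 1 and 2. The low value on over-expression replicate 1 was not accounted for. A reporter signal as high as 11.88 on an array labelled wild type was not accounted for either, so values without each wild-type array are given below for the genes described here. The level of GhHD-1 itself was not analysed here, because the annotation names it for none of the probe sets. Markers of maturing seed (6 probe sets of storage and late embryogenesis proteins) summed to 11.24 to 11.91 in over-expression, 11.67 and 11.68 in silenced and 11.31 and 12.39 in wild-type ovules, on the log2 scale. Of these, vicB_At, LegA and 1 of the LEGB probe sets lay near the floor at 3.07 to 4.32 on all 7 arrays. Lea5-D was the highest of the 6 on every array, at 10.57 and 12.09 on wild-type replicates 1 and 2, so the sum mostly reflects that gene. The pollen-type marker PG lay at 3.67 to 4.46 on all arrays, also near the floor, below which 5% of probe sets fell (3.50 to 3.67 by array). No probe set of the green-tissue list was annotated.

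MYB1 gave the widest separation of the 4 genes. Its log2 intensity was 7.90, 8.69 and 8.06 in over-expression ovules, 10.00 and 9.99 in silenced ovules, and 9.00 and 8.08 in wild-type ovules. Both silenced arrays lay above every other array, by a gap of 0.98, while the over-expression and wild-type arrays overlapped. Among all probe sets, 9.52% had both silenced arrays above every other array, and 0.745% of those showed a larger gap. The group means were 8.22 ± 0.41 in over-expression (SD, n = 3), 9.99 ± 0.0083 in silenced (SD, n = 2) and 8.54 ± 0.65 in wild-type ovules (SD, n = 2).

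The MYB1 difference between silenced and wild-type ovules was 1.45 (SE 0.35, 95% confidence interval 0.63 to 2.27), a 2.74-fold higher mean, but it did not pass after adjustment over all probe sets (limma, adjusted p = 0.190). A larger absolute difference was seen in 0.496% of the probe sets tested. Between over-expression and silenced ovules the difference was -1.78 (SE 0.32, interval -2.52 to -1.03), a 3.42-fold higher mean in silenced ovules, with an adjusted p of 0.135 in the fit of all 7 arrays. Over-expression and wild-type ovules differed by -0.32 (SE 0.32, interval -1.07 to 0.43, adjusted p = 0.692). In order of level, silenced ovules were thus highest and the other two groups could not be told apart beyond their spread.

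The call of MYB1 between the transgenic groups depended on the fit. When limma was fitted to over-expression and silenced arrays alone, MYB1 was lower in over-expression (difference -1.78, SE 0.24, adjusted p = 0.0457), in a comparison that called 0.993% of all probe sets. The fit that weighted each array by its consistency gave -1.88 (adjusted p = 0.00935) and called 5.04%. Over all alternatives for this comparison the adjusted p ran between 0.00935 and 0.862, the highest being without silenced replicate 2. Without wild-type replicate 1 the difference between silenced and wild type was 1.91 (adjusted p = 0.0571), and without wild-type replicate 2 it was 0.99 (adjusted p = 0.213). The remaining lone array is then assumed to vary like the other groups.

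The MYB gene myb109 varied more within groups than between them. It read 7.07, 5.60 and 7.18 in over-expression ovules, 6.45 and 6.18 in silenced ovules, and 5.61 and 6.86 in wild-type ovules. Over-expression replicate 2 and wild-type replicate 1 were the low arrays, and all 3 groups overlapped. The pooled SD within groups was 0.77, more than in 98.5% of probe sets, whose median was 0.17.

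No difference in myb109 was detectable against that spread. The means were 6.62 ± 0.88 in over-expression (SD, n = 3), 6.32 ± 0.19 in silenced (SD, n = 2) and 6.23 ± 0.89 in wild-type ovules (SD, n = 2). Silenced minus wild type was 0.08 (SE 0.59, 95% interval -1.31 to 1.48), and over-expression minus wild type was 0.38 (SE 0.54, interval -0.90 to 1.66). Over-expression minus silenced was 0.30 (SE 0.54, interval -0.98 to 1.57), and the 3 limma adjusted p-values were 0.957, 0.791 and 0.887 in the order given. These intervals include changes of more than 2-fold in either direction for silenced minus wild type. The sign against wild type turned with the wild-type array kept: without replicate 1, silenced minus wild type was -0.54 and over-expression minus wild type was -0.25, and without replicate 2 they were 0.71 and 1.01. Silenced minus wild type was -0.051 without silenced replicate 1, and over-expression minus wild type was 0.10 without over-expression replicate 3. Over-expression minus silenced ran from 0.016 without over-expression replicate 3 to 0.80 without over-expression replicate 2.

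**Figure D1:**
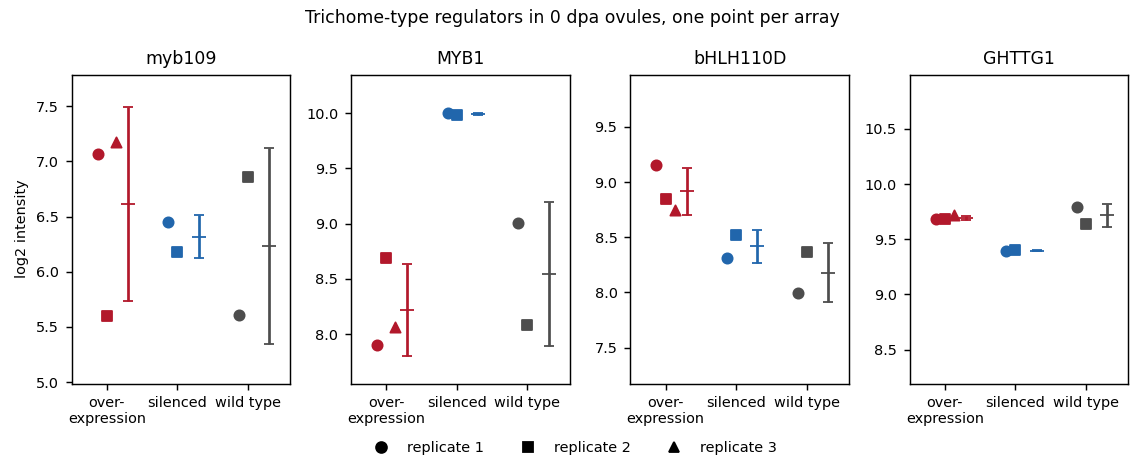
Log2 intensity of the 4 regulators on each of the 7 arrays, by genotype group and with the same axis length in every panel. Points are arrays, with the marker shape giving the replicate number, and bars are the group mean and SD. MYB1 sits near 10 on both silenced arrays and at or below 9.00 elsewhere, myb109 splits within the over-expression and wild-type groups, bHLH110D is above 8.7 on the over-expression arrays, and GHTTG1 is lowest on the silenced arrays.

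The bHLH gene bHLH110D stood highest in over-expression ovules. It read 9.16, 8.85 and 8.75 in over-expression, 8.31 and 8.52 in silenced and 7.99 and 8.37 in wild-type ovules. All 3 over-expression arrays lay above all 4 others, with a gap of 0.22 to the nearest, while silenced and wild-type arrays overlapped. Over-expression arrays lay above every other array in 4.32% of all probe sets, and 11.3% of those had a larger gap.

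The difference between over-expression and wild-type ovules in bHLH110D was 0.74 (SE 0.18, 95% interval 0.32 to 1.15), a 1.67-fold higher mean that did not pass (limma, adjusted p = 0.407). The means were 8.92 ± 0.21 (SD, n = 3) in over-expression ovules and 8.18 ± 0.27 (SD, n = 2) in wild-type ovules. Without wild-type replicate 1 the difference was 0.55 and without replicate 2 it was 0.92 (adjusted p = 0.0769), where the alternatives together ran between 0.0769 and 0.765. Against silenced ovules, at 8.42 ± 0.15 (SD, n = 2), over-expression was higher by 0.50 (SE 0.18, interval 0.09 to 0.92, adjusted p = 0.325). Silenced and wild-type ovules differed by 0.24 (SE 0.19, interval -0.22 to 0.69, adjusted p = 0.591), and the difference moved to 0.048 when wild-type replicate 1 was left out and to 0.42 when replicate 2 was. Both of the lower groups thus stood within their spread of each other.

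GHTTG1 varied least. It read 9.68, 9.68 and 9.72 in over-expression, 9.39 and 9.40 in silenced and 9.79 and 9.64 in wild-type ovules. The silenced arrays lay below the other 5 by a gap of 0.24, a position that silenced arrays held in 9.95% of all probe sets, and 19.5% of those had a larger gap. The pooled SD within groups was 0.06, and 3.79% of probe sets had a smaller one.

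Silenced minus wild type in GHTTG1 was -0.32 (SE 0.11, 95% interval -0.58 to -0.05), which did not pass (limma, adjusted p = 0.277). Its fold is small, a mean 1.25 times higher in wild-type ovules, and 27.1% of all probe sets differed by more in this comparison. Without wild-type replicate 1 the difference was -0.24, and without wild-type replicate 2 it was -0.39. Over-expression minus silenced was 0.29 (SE 0.10, interval 0.05 to 0.54, adjusted p = 0.319). Over-expression minus wild type was -0.02 (SE 0.10, interval -0.26 to 0.22, adjusted p = 0.937). Median centring of the arrays gave 0.04 for that last difference and leaving out wild-type replicate 1 gave 0.05, so no direction is given for it.

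Across the 3 comparisons limma called 0 of the 4 genes in the fit of all 7 arrays. The same fit called 0.0% of the 23977 probe sets for silenced against wild type, 0.00417% for over-expression against wild type and 0.0209% for over-expression against silenced. At an unadjusted p under 0.05 the counts were 2, 1 and 3 of 4, where all probe sets gave 14.5%, 10.4% and 12.1%. Silenced and wild-type arrays did not overlap in 2 of 4 genes (45.4% of all probe sets), over-expression and wild-type arrays in 1 of 4 (24.3%), and over-expression and silenced arrays in 3 of 4 (33.9%). The comparisons against wild type share the same wild-type arrays, so their values are not independent.

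The list of MYB, bHLH and WD-repeat regulators annotated on the array held 11 probe sets from 10 genes, the 4 above included. Their median difference was 0.05 for silenced minus wild type, 0.07 for over-expression minus wild type and 0.29 for over-expression minus silenced, beside 0.02, 0.02 and 0.01 over all probe sets. Above 0 lay 6, 6 and 7 of the 11, where 52.3%, 53.5% and 52.9% of all probe sets did, and 0 passed in any comparison. At an unadjusted p under 0.05 (limma) there were 2, 1 and 5, where all probe sets gave 14.5%, 10.4% and 12.1%. These counts include the 2, 1 and 3 of the 4 genes above. The other 7 probe sets belong to GHMYB10, GHMYB36, GHMYB38 (2 probe sets), MYB5, MYB6 and a gene listed only as MYB, all of the MYB family.

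For GHMYB36, MYB6 and GHMYB10 the silenced arrays gave the lowest values, and none of the differences passed in the fit of all 7 arrays. GHMYB36 averaged 9.24 ± 0.07 in over-expression (SD, n = 3), 8.79 ± 0.09 in silenced (SD, n = 2) and 9.17 ± 0.34 in wild-type ovules (SD, n = 2). MYB6 averaged 10.14 ± 0.27, 9.65 ± 0.02 and 9.99 ± 0.08 in the same groups, and GHMYB10 averaged 10.71 ± 0.41, 10.29 ± 0.03 and 10.51 ± 0.23. In all 3 both silenced arrays lay below the other 5, by gaps of 0.08, 0.16 and 0.04. Silenced arrays held this position in 9.95% of all probe sets, and 59.2%, 32.3% and 75.0% of those had a larger gap. Silenced minus wild type was -0.38 for GHMYB36 (SE 0.17, adjusted p = 0.375), -0.34 for MYB6 (SE 0.18, adjusted p = 0.429) and -0.22 for GHMYB10 (SE 0.26, adjusted p = 0.702). Leaving out wild-type replicate 2 moved these to -0.14 for GHMYB36, -0.28 for MYB6 and -0.063 for GHMYB10. Leaving out wild-type replicate 1 moved them to -0.62, -0.40 and -0.39. Over-expression minus silenced was 0.45 for GHMYB36 (SE 0.16, adjusted p = 0.325), 0.48 for MYB6 (SE 0.16, adjusted p = 0.313) and 0.42 for GHMYB10 (SE 0.23, adjusted p = 0.541). For GHMYB10 it was 0.20 without over-expression replicate 1. With array weights GHMYB36 and MYB6 passed in this comparison (adjusted p = 0.0491 and 0.0411), in a fit that called 5.04% of all probe sets; over the alternatives their adjusted p reached 0.902 each.

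The gene listed as MYB resembled MYB1 in the silenced group. It read 5.43, 7.91 and 6.0 in over-expression, 7.81 and 7.90 in silenced and 7.0 and 6.48 in wild-type ovules. Silenced minus wild type was 1.12 (SE 0.71, adjusted p = 0.501) and over-expression minus silenced was -1.41 (SE 0.65, adjusted p = 0.455). Over-expression replicate 2 was as high as the silenced arrays, so those groups overlapped. MYB5 differed by no more than 0.34 in any comparison (adjusted p between 0.549 and 0.902).

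**Figure D2:**
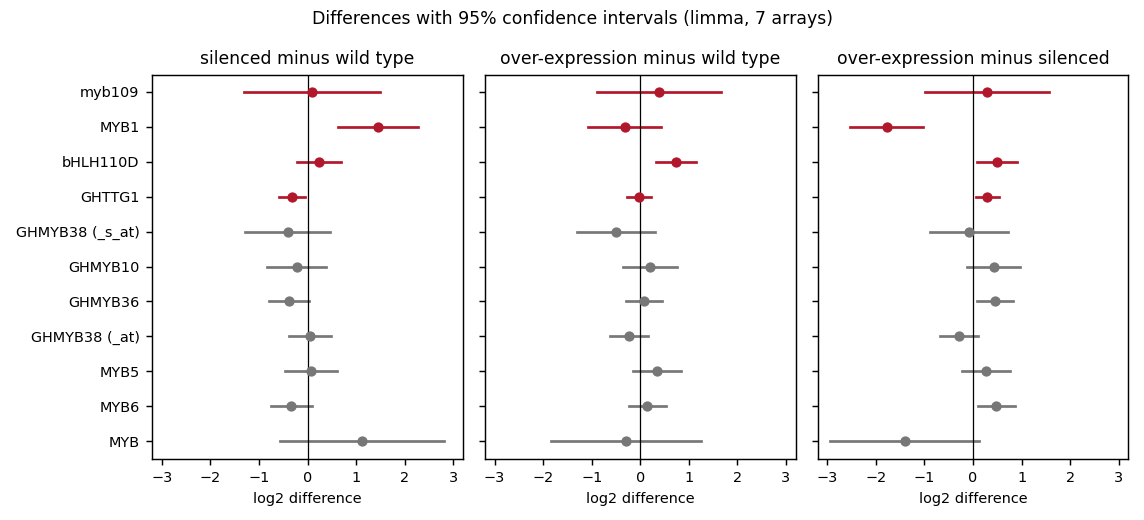
Log2 differences with 95% confidence intervals from limma for the 11 probe sets of MYB, bHLH and WD-repeat regulators in the 3 comparisons, with the 4 genes described here in red and the others in grey. MYB1 is the point farthest from 0 for silenced minus wild type (1.45) and for over-expression minus silenced (-1.78), and 0 of the plotted values passed after adjustment.

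On the over-expression and wild-type arrays, myb109 stood high or low together with genes that mark fibre initials, but it parted from them in silenced ovules. Of the marker list, RDL1, MYB2, MYB25 and FbL2A were not annotated, and 3 genes were: E6, a gene of fibre cells, EXPA1, an expansin that loosens the walls of growing fibres, and HOX3, a homeodomain factor needed for fibre growth. The E6 probe set also ends in _s_at and that of EXPA1 in _x_at, so neither is taken to read a single gene. Summed, these markers gave 12.03, 11.26 and 12.02 in over-expression, 11.11 and 11.08 in silenced and 11.32 and 11.95 in wild-type ovules, on the log2 scale. The arrays with low marker sums were over-expression replicate 2, both silenced arrays and wild-type replicate 1, and 0 of the 3 markers lay near the floor. The sums were lowest on the silenced arrays, where myb109 read 6.45 and 6.18. On over-expression replicate 2 and wild-type replicate 1 myb109 was lower, at 5.60 and 5.61. Silenced minus wild type was 0.08 for myb109 but -0.62 for E6, -0.75 for EXPA1 and -0.38 for HOX3, and none of these passed. In whole ovules, fewer cells of a type and less RNA per cell cannot be told apart.

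The size of the split can be read within groups. Over-expression replicate 2 minus the mean of replicates 1 and 3 was -1.52 for myb109, -0.89 for E6, -0.82 for EXPA1 and -0.65 for HOX3. Wild-type replicate 1 minus replicate 2 was -1.26 for myb109, -0.62 for E6, -1.19 for EXPA1 and -0.44 for HOX3. This order of arrays was picked after the values were seen, and 24.5% of all probe sets share it. The part of these markers in the myb109 values was not tested. MYB1 ran the other way on the same arrays, with 0.70 and 0.92 for these within-group differences, an order found in 18.1% of all probe sets.

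**Figure D3:**
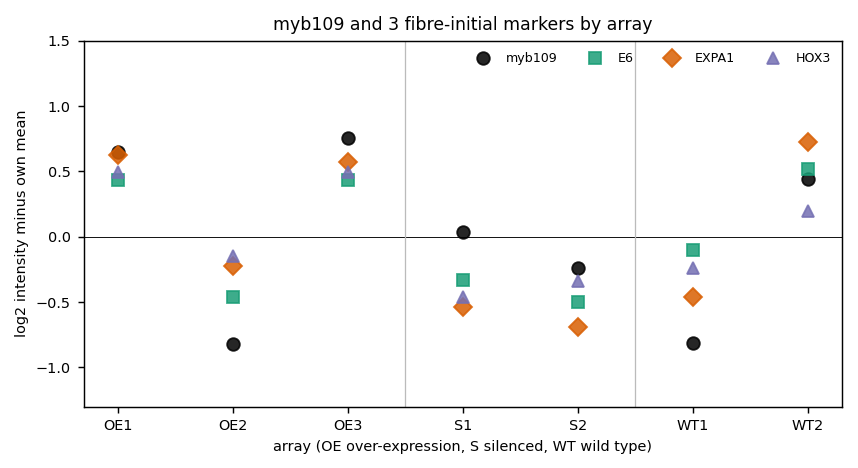
Log2 intensity minus the gene's own mean of the 7 arrays for myb109 and the fibre-initial markers E6, EXPA1 and HOX3, by array. Points are single arrays, grouped as over-expression (OE), silenced (S) and wild type (WT). All 4 genes lie above their own mean on OE1, OE3 and WT2 and below it on OE2, S2 and WT1; on S1 myb109 lies near its mean and the markers below theirs.

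The named genes with the most similar patterns differed for each regulator. Likeness was the root mean square (RMS) difference over the 7 arrays after each probe set's own mean was subtracted, among 323 probe sets of other genes with a name. Genes were picked on these same arrays, so a shared order of arrays or groups follows from the choice. A flat profile would lie at 0.607 from myb109, 0.825 from MYB1, 0.358 from bHLH110D and 0.144 from GHTTG1. Each of these is below the median candidate, so lying under the median says little. Nearest to myb109 were Pel, a pectate lyase gene (0.34), E6 (0.38) and CHS2, a chalcone synthase of flavonoid synthesis (0.39), while the median candidate lay at 0.615. EXPA1 and HOX3 ranked 6 and 8 of the 323, at 0.40 and 0.41. The Pel probe set was dim, with 4.43 in over-expression, 4.27 in silenced and 4.56 in wild-type ovules on average.

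Nearest to MYB1 were HB4, a homeobox gene (0.28), FLA4, a fasciclin-like arabinogalactan protein of the cell surface (0.38), and SKD1 (0.40), where the median candidate lay at 0.86. HB4 read 8.94, 9.68 and 9.12 in over-expression, 10.42 and 10.65 in silenced and 9.52 and 9.30 in wild-type ovules. It stood highest on both silenced arrays, and over-expression replicate 2 was the highest array of its group. HB4 was picked for such likeness to MYB1. Its difference between over-expression and silenced ovules was -1.29 (SE 0.22, adjusted p = 0.133). FLA4 averaged 10.21, 11.79 and 11.15 in over-expression, silenced and wild-type ovules, and SKD1 was dim at 3.80, 4.77 and 4.12.

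Nearest to bHLH110D were the NAC factor NAC10 (0.14) and a pair of probe sets of FLA6 (0.15 and 0.18), against a median of 0.40. NAC10 averaged 5.83 in over-expression, 5.60 in silenced and 5.32 in wild-type ovules. Nearest to GHTTG1 were the gene listed as GRPL1 and rgp1 (0.06), TPS1 (0.07) and SMT2-2, a sterol methyltransferase (0.08), against a median of 0.26. GRPL1 averaged 9.53 in over-expression, 9.15 in silenced and 9.42 in wild-type ovules, while TPS1 lay at the floor with means of 3.45, 3.21 and 3.51.

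**Figure D4:**
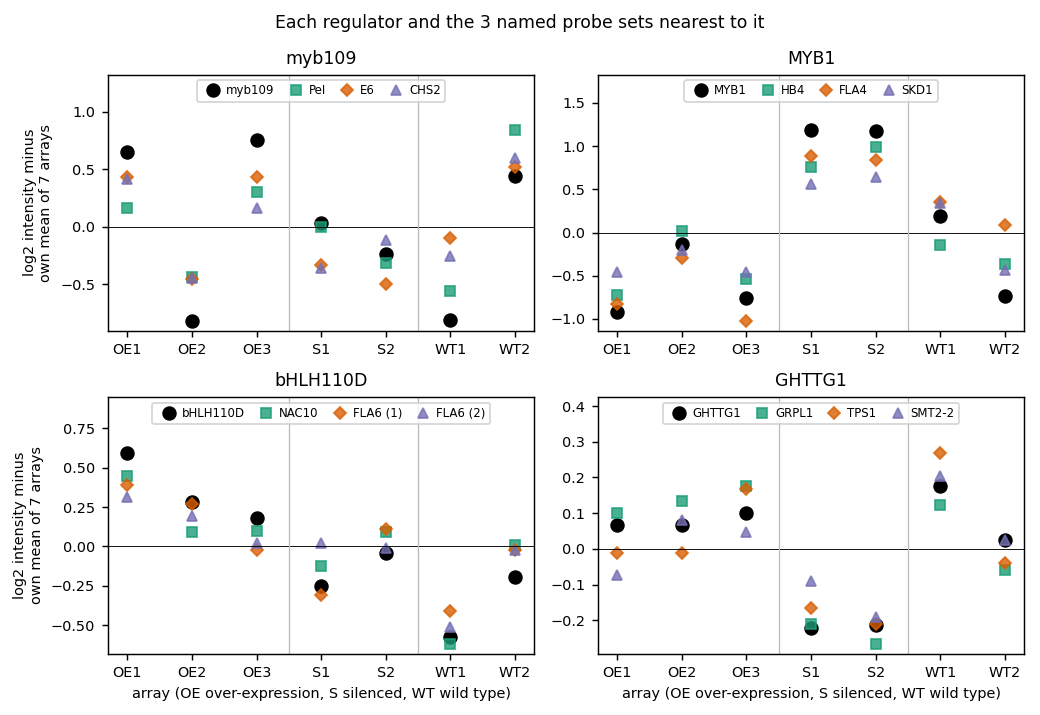
Log2 intensity minus the probe set's own mean of the 7 arrays for each regulator (black) and the 3 named probe sets nearest to it by RMS difference (coloured), by array, with over-expression (OE) left, silenced (S) in the middle and wild type (WT) right. The vertical axes differ between panels; MYB1 and HB4 lie highest on S1 and S2, and GHTTG1 and GRPL1 lie lowest there.

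The fibre list held 11 probe sets of 8 genes and the homeobox list held 2 genes, and 0 of these passed in any comparison. For silenced minus wild type the fibre list had a median of 0.10 with 8 above 0, for over-expression minus wild type -0.04 with 5 above 0, and for over-expression minus silenced 0.03 with 6 above 0. Of all probe sets, 52.3%, 53.5% and 52.9% lay above 0 in these comparisons. E6 averaged 10.32 in over-expression, 9.77 in silenced and 10.40 in wild-type ovules. EXPA1 averaged 9.13, 8.18 and 8.93 in the same groups, and its difference between over-expression and silenced ovules was 0.94 (SE 0.38, adjusted p = 0.398). HOX3 averaged 10.68, 10.00 and 10.38, which differed by 0.68 between over-expression and silenced ovules (SE 0.23, adjusted p = 0.314). Other fibre genes of small p did not follow E6 and EXPA1. For silenced minus wild type, E6 gave -0.62 and EXPA1 -0.75, but a dim CelA1 probe set gave 0.40 (SE 0.24). For over-expression minus silenced H6L, also dim with means of 4.87 and 5.28, gave -0.41 (SE 0.22). For over-expression minus wild type the smallest p belonged to CelA1 probe sets (0.42, and 0.43 at the dim one) and to a dim Pel probe set (0.32). That Pel probe set averaged 4.70 in over-expression and 4.38 in wild-type ovules. The other Pel probe set, the one nearest to myb109, ran the other way, with 4.43 and 4.56.

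**Figure D5:**
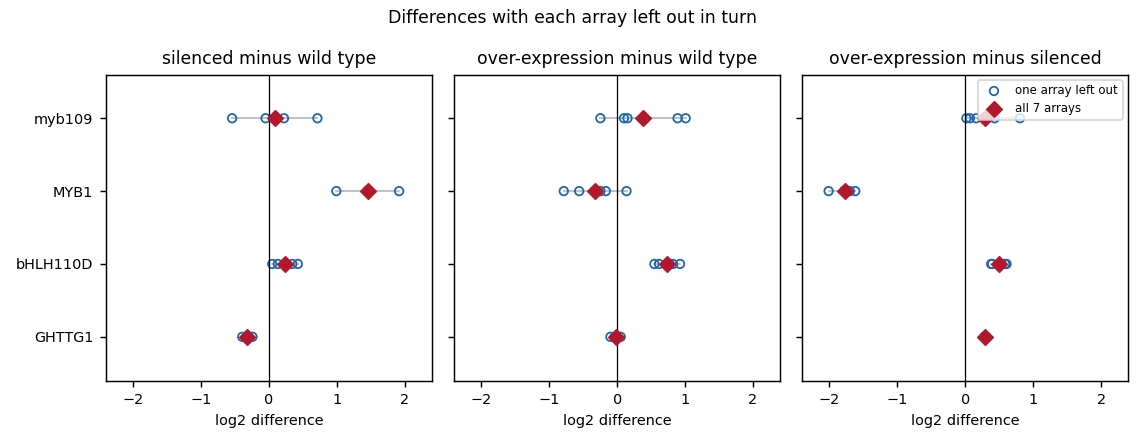
Log2 differences of the 4 regulators in the 3 comparisons with all 7 arrays (red diamonds) and with each array left out in turn (open blue circles, joined by a grey line from lowest to highest). MYB1 stays between 0.99 and 1.91 for silenced minus wild type and between -2.01 and -1.62 for over-expression minus silenced, while myb109 crosses 0 in both comparisons against wild type.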

How the data were processed

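The authors deposited log2 intensities, with 1 column per array and 1 row per probe set. R 2.7.1, RMA and limma are named in the submitters' processing notes, without role or order, and the sources used here give no further steps. RMA equalises distributions between arrays and compresses low signals. The table held 24132 probe sets, of which 103 AFFX and 52 RPTR controls were set apart and 23977 were tested. The annotation of the platform gave 1 gene for 697 of them, several for 46, which were not named, and none for 23234. All 697 were found in the RefSeq table of assembly Gossypium_hirsutum_v2.1, and 324 carried a name beyond a locus number. No coordinates are given, because the array names no build.

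The tests used limma 3.58.1 under R 4.3.3 (lmFit on 7 arrays, 1 mean per group, eBayes, two-sided) and adjusted by Benjamini-Hochberg over all tested probe sets at a threshold of 0.05. The fit was run on simulated data in which each probe set had the same SD on every array. That run does not cover the unequal spread between arrays seen here. The number of arrays limits the precision, and no filter on dim probe sets was applied. The members and lists were chosen with earlier results of these data known. Named genes are the 4 members, the other regulators of the list, at most 3 of the homeobox and fibre lists by smallest p, and the 3 named probe sets nearest to each member. Alternatives were fits of the compared groups alone, a replicate block, eBayes with a trend or robust prior, array weights, median centring, cyclic loess, only probe sets at or above the 25th percentile of mean level, controls kept, and each array left out.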

Additional observations from a re-analysis of the deposited data

Results flagged for a closer look

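A signal stood out in the reporter controls, which were left out of the main fit and entered only the alternative with controls kept. RPTR-Ghi-A06498-1_at read 4.63, 4.66 and 4.39 on the over-expression arrays, 9.99 and 10.15 on the silenced arrays and 4.08 and 4.59 on the wild-type arrays. The silenced mean was 5.73 log2 units above the wild-type mean. MYB1 and this probe set were both highest on the same 2 arrays, and what the reporter stands for is not given in the labels.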

How the results depend on the processing

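Over all probe sets, silenced against wild type gave 0 calls, 7 with a robust prior, 1 with controls kept and 0 to 73 with an array left out. Over-expression against wild type gave 1 call, and 0 in the fit of these groups alone, with the replicate block, with array weights and with cyclic loess; leaving out an array gave 0 to 475. Over-expression against silenced gave 5 calls, 238 in the fit of these groups alone, 0 with the replicate block, 1209 with array weights, 9 with median centring and 0 to 238 with an array left out. The most calls with an array left out came without wild-type replicate 1 for silenced against wild type (73), without wild-type replicate 2 for over-expression against wild type (475) and without either wild-type replicate for over-expression against silenced (238). Of 192 values of the 4 members under an alternative, 182 kept their direction and call, 6 turned sign and 4, all MYB1 between over-expression and silenced, passed where the fit of all arrays did not. These 4 come from 2 distinct fits, array weights and the transgenic arrays alone, because a lone wild-type array adds nothing to the spread and leaving out either one repeats the fit of the transgenic arrays. Many of the 192 values could not turn sign. Fits that change only the estimate of spread, the probe sets kept or the arrays outside the comparison return the same difference. No member passed in the fit of all arrays either, so the 182 are not a measure of stability.

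No difference of the listed regulators passed in the fit of all arrays, so every sign that turned belonged to a difference that had not passed. Median centring gave 0.037 for GHTTG1 in over-expression minus wild type. With an array left out, the ranges that crossed 0 for silenced minus wild type were -0.54 to 0.71 for myb109, -0.064 to 0.21 for MYB5 and -0.051 to 0.16 for the _at probe set of GHMYB38. For over-expression minus wild type they were -0.25 to 1.01 for myb109, -0.79 to 0.14 for MYB1, -0.10 to 0.052 for GHTTG1, -0.026 to 0.37 for GHMYB10, -0.17 to 0.31 for GHMYB36 and -1.02 to 0.22 for MYB. For over-expression minus silenced the _s_at probe set of GHMYB38 ran from -0.38 to 0.25, and the replicate block gave 0.25. The cause was not tested.

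The replicate numbers share no stated litter, batch or day. Replicate 1 minus 2 correlated across probe sets at 0.10 between over-expression and silenced, -0.27 between over-expression and wild type and 0.10 between silenced and wild type, so the numbers were not taken as pairs. Over-expression replicate 3 has no partner and drops out of the block fit, in which MYB1 differed by -1.70 between over-expression and silenced (adjusted p = 0.506).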

Other observations

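The probe sets of GHMYB38, a MYB gene of the list, disagreed over the arrays. The one ending in _s_at read 9.31, 9.84 and 8.58 in over-expression, 9.10 and 9.55 in silenced and 9.78 and 9.70 in wild-type ovules. The other, ending in _at, read 9.30, 8.96 and 9.46 in over-expression, 9.54 and 9.53 in silenced and 9.38 and 9.59 in wild-type ovules. Over-expression replicate 2 was the highest array of all at the first and the lowest of all at the second, and wild-type replicate 1 lay above replicate 2 at the first and below it at the second. Over-expression minus wild type was below 0 at both, at -0.50 (SE 0.34, adjusted p = 0.581) for the first and -0.24 (SE 0.17, adjusted p = 0.580) for the second, by limma.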
